A study of Mus musculus with 6 samples.

Results

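Circular RNAs (circRNAs) made from genes of zinc finger transcription factors were examined in the mouse cortex. A circRNA is a closed RNA ring formed when the end of an exon (the donor end) is joined back to the start of the same or an upstream exon (the acceptor end), a step called back-splicing. Members were the circRNAs listed with exactly 1 host gene whose symbol begins with Zfp, Zbtb, Zkscan, Zscan, Zfhx or Zeb followed by a number. This rule gave 186 of the 11171 circRNAs, from 66 of the 3469 genes listed as a single host. The other 10087 circRNAs with 1 listed host served as the comparison, and rows with no host (837) or with several hosts (61) were left out of both sets. Of the members, 153 came from 54 Zfp genes, 16 from 7 Zbtb genes, 5 from 2 Zfhx genes, 10 from Zeb1 and 2 from Zkscan1 and Zscan18.

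Total RNA depleted of ribosomal RNA was sequenced from the cortex of 3 Control and 3 TLE mice, with 1 library per mouse. All were C57BL/6 males of 6 weeks. The TLE mice had been given scopolamine methyl bromide and then pilocarpine, a muscarinic agonist that induces seizures, with diazepam to end the seizures. Control mice were given saline, and TLE cortex was collected 24 h after Status Epilepticus, a time before chronic epilepsy, so the TLE group stands for early epileptogenesis.

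C2H2 zinc finger proteins form the largest family of transcription factors in mammals. In each finger, a pair of cysteines and a pair of histidines hold a zinc ion, and fingers in tandem read the bases of DNA. Many Zfp genes carry a KRAB domain, which recruits the co-repressor Trim28 to silence retroelements, and several consecutive fingers are commonly encoded by the gene's last exon. Zbtb proteins pair fingers with a BTB domain for dimerisation, Zkscan and Zscan proteins carry a SCAN domain, and Zfhx and Zeb proteins combine fingers with homeodomains. Several genes of this class are well-known circRNA sources in other tissues, among them the human counterparts of Zfp609 and Zkscan1.

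The back-spliced junctions of 9 members are printed below because they identify the circRNAs on which most of the abundance rests. Each has 15 bases of the donor exon in lower case followed by 15 bases of the acceptor exon in capitals, 5′ to 3′ on the strand of the host. The bases are those of the GENCODE M21 transcripts of the mm10 build at the ends listed by the authors. The set holds the members among the 12 most abundant whose ends both lie on annotated exon boundaries, apart from mmu_circ_0004189 of Zfp532 and mmu_circ_0010039 of Zfp827, and Zkscan1 is added as the host of a well-known human circRNA.
Zfp148 mmu_circ_0003257, exons 2 to 4, chr16:33421321-33434974, plus strand: gcactcaatgtccctGATAGAAGAGAAGAA
Zbtb20 mmu_circ_0003327, exons 10 to 13, chr16:43569681-43577748, plus strand: ccgggtcatctgattATGCAGCCACTCTCT
Zfp609 mmu_circ_0010631, exon 2, chr9:65794622-65795495, minus strand: gtcaagtctgaaaagCAATGATGTTGTCCA
Zfp827 mmu_circ_0010049, exons 6 to 8, chr8:79118175-79136663, plus strand: gagtgtctgctccagCGGAAAGCTACAAGG
Zfp148 mmu_circ_0003264, exons 6 to 7, chr16:33466855-33468183, plus strand: agaagatccataccgATCCTTACAATAAAT
Zfp644 mmu_circ_0007681, exons 3 to 5, chr5:106634831-106638635, minus strand: tgactgtgcactcagACTAAAGGTGTTAAA
Zfp644 mmu_circ_0007682, exons 2 to 5, chr5:106634831-106666845, minus strand: tgactgtgcactcagGCTTGATTTAAATTT
Zfp385b mmu_circ_0006407, exons 2 to 3, chr2:77719451-77720699, minus strand: cgaacaccagcacagATGCTCTACATTTCA
Zkscan1 mmu_circ_0007864, exons 2 to 3, chr5:138092920-138094139, plus strand: gtctcttatcccgagGAATAGTGGAGGAAC
The pair from Zfp644 shares the lower-case side, since both end at exon 5 and differ in the exon at which they start.

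Abundance was given in SRPBM, the reads across a back-spliced junction scaled to the mapped reads of the library. Such a value counts reads over 1 junction whatever the length of the circRNA, so levels can be set side by side between hosts. Within a library all values were whole multiples, within 0.1 of a step, of a step of 8.55 to 10.3 SRPBM. The step was taken as 1 junction read, an inference on which every read count given here rests. The libraries then held 32504 to 56516 junction reads, with TLE 1 the shallowest and TLE 3 the deepest. Among genes that mark cortical cell types, 5 of 10 neuronal genes hosted circRNAs in the rows analysed (Rims1 is not analysed here), against 1 of 4 for astrocytes and 0 of 4 for each of oligodendrocytes, microglia and endothelial cells. A gene without a circRNA says nothing of its cell type here. The summed SRPBM of the neuronal marker hosts was 2624 to 3049 in Control and 3388 to 4173 in TLE libraries. In these deposited values the groups did not overlap. Most of this sum was Rims2, at 1795 to 2119 SRPBM in Control and 2427 to 3191 SRPBM in TLE libraries. Grin2a also stood apart, while Grin2b and Syt1 overlapped between groups. Neither the sum nor these hosts were rescaled for the totals of the libraries. Total SRPBM was 330961 to 360024 in Control and 335753 to 489032 in TLE libraries. Whether the gap remains at the same total was not tested. The part of these hosts in the comparisons between groups was not tested. A change in the number of cells of a type cannot be told apart from a change in RNA per cell.

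Members made up a nearly constant part of all circRNA signal. They held 3.16%, 3.10% and 3.03% of the total SRPBM in Control 1, 2 and 3, a mean of 3.09% ± 0.065 (SD, n = 3). In TLE 1, 2 and 3 they held 3.19%, 2.90% and 3.10%, a mean of 3.06% ± 0.151 (SD, n = 3). The TLE range included the Control range. The number of members detected was 99, 80 and 92 in Control and 86, 100 and 116 in TLE libraries. At the depth of the shallowest library, 88.4, 77.2 and 84.7 members would be detected in Control and 86.0, 88.4 and 90.8 in TLE libraries, and these ranges overlap.

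Most members were scarce. In all, 65 members (34.9%) were seen in a single library, against 44.3% of the other single-host circRNAs, and 40 (21.5%) were seen in all 6, against 14.4%. The median member had 9 junction reads over the 6 libraries and the median of the others had 5. At this depth a value of 0 in a library allows up to 3 reads, or 25.6 to 31.0 SRPBM, if no read was seen, which covers counting error only. The smallest value listed corresponds to 2 reads, so a 0 can also stand for a single read, and the limit is then higher. The signal was concentrated in few circRNAs. The most abundant member held 15.3% of all member SRPBM, the top 3 held 41.3%, the top 12 held 64.0% and the top 40 held 84.1%.

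Zfp148, which binds GC-rich promoters, gave the most abundant member. Its circRNA of exons 2 to 4 (567 nt of exon) reached 1564, 1636 and 1861 SRPBM in Control and 1673, 1675 and 2328 SRPBM in TLE libraries. Zbtb20, a repressor needed for hippocampal development and for making astrocytes, came next with the circRNA of its exons 10 to 13 (511 nt). Its values were 1880.1, 1348 and 1895 SRPBM in Control and 1735, 1043 and 1904 SRPBM in TLE libraries. Zfp609, a regulator of cortical neuron migration and muscle growth, gave the single-exon circRNA of 874 nt at 1419, 1134 and 1361 SRPBM in Control and 1487, 1236 and 1696 SRPBM in TLE libraries. These 3 levels overlap between libraries, so their order is not set beyond the spread. In each of the 3, the groups overlapped as well.

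A step below these stood Zfp532, the circRNA of exons 7 and 8 (mmu_circ_0004189), with 734.9, 883 and 689 SRPBM in Control and 578, 701 and 1134 SRPBM in TLE libraries. The remaining 8 of the 12 most abundant members had means from 157 to 376 SRPBM. They came from Zfp644 (3 circRNAs), Zfp827 (2), Zfp148, Zfp385b and Zfp62. The leading circRNA of Zfp644, whose protein works with the G9a and GLP histone methyltransferases, had 402, 409 and 276 SRPBM in Control and 341, 429.6 and 398 SRPBM in TLE libraries. The leading circRNA of Zfp827, whose protein recruits the NuRD complex to telomeres, had 222, 251 and 249.8 SRPBM in Control libraries, against 309.9, 351 and 381 SRPBM in TLE. It was the only one of the 12 in which every TLE library lay above every Control library.

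**Figure D1:**
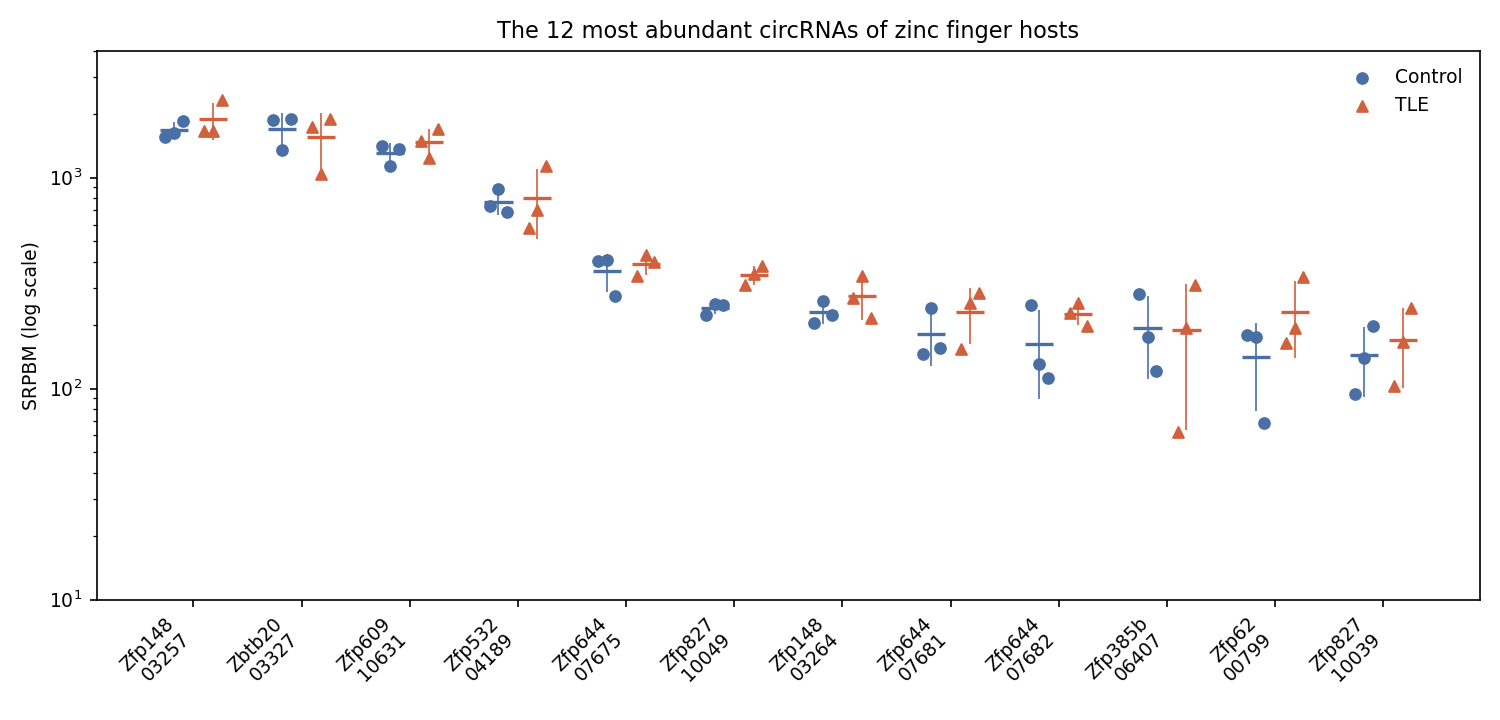
SRPBM (log scale) of the 12 most abundant members in each of the 6 libraries, labelled by host and the last 5 digits of the circRNA number. Circles are Control and triangles TLE libraries, horizontal lines the group means and vertical lines 1 SD (n = 3). Both groups overlap in 11 of the 12, and the exception is Zfp827 mmu_circ_0010049.

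Summed per host, the same genes led. Zfp148 had a mean of 2347 SRPBM over the 6 libraries from 8 circRNAs and ranked 5 among all 3469 single hosts. Its lowest library (2073 SRPBM) was above the highest of Zbtb20 (2068 SRPBM) by less than 1 junction read. Zbtb20 (1754 SRPBM, 6 circRNAs), Zfp609 (1427 SRPBM, 5), Zfp644 (1124 SRPBM, 8), Zfp532 (1075 SRPBM, 5) and Zfp827 (791 SRPBM, 13) followed, and each of these neighbours overlapped the next. These 6 hosts held 73.0% of all member SRPBM. The next hosts were Zfp62 (287 SRPBM, 4 circRNAs), Zeb1 (241 SRPBM, 10 circRNAs), Zfp385b (207 SRPBM, 4) and Zfp638 (163 SRPBM, 8). The highest library of Zfp62 (554 SRPBM) was below the lowest of Zfp827 (558 SRPBM), also by less than 1 junction read.

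Hosts with several circRNAs were no more common than elsewhere. There were 12 hosts with 5 or more circRNAs (18.2%), against 18.01% of other hosts, and 32 of the 66 hosts had a single circRNA. Zfp827 gave 13, Zeb1 gave 10 and Zfp280c gave 9, while Zfp148, Zfp644, Zfp638 and Zfp608 gave 8 each. Zfp280d gave 7, Zbtb20 and Zfp536 gave 6, and Zfp609 and Zfp532 gave 5. The hosts differed in how far a single circRNA dominated. The leading circRNA held 97.4% of the SRPBM of Zfp609, 93.2% of Zbtb20, 76.3% of Zfp148 and 73.2% of Zfp532, but 33.4% of Zfp644 and 37.2% of Zfp827. The median over the 12 hosts was 46.8%, and 44.6% over the other hosts with 5 or more circRNAs.

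The circRNAs of a host reused a few ends. The 13 circRNAs of Zfp827 were built from 4 acceptor and 5 donor ends between exons 2 and 8. The 10 circRNAs of Zeb1, the repressor of E-cadherin in epithelial to mesenchymal transition, used 4 acceptors and 5 donors. The 8 circRNAs of Zfp644 used 3 acceptors and 4 donors, 6 of them seen in every library. The 4 circRNAs of Zfp62 all began at exon 2 and had 4 different donor ends inside exon 5, the last exon, which encodes all 25 fingers of the protein.

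**Figure D2:**
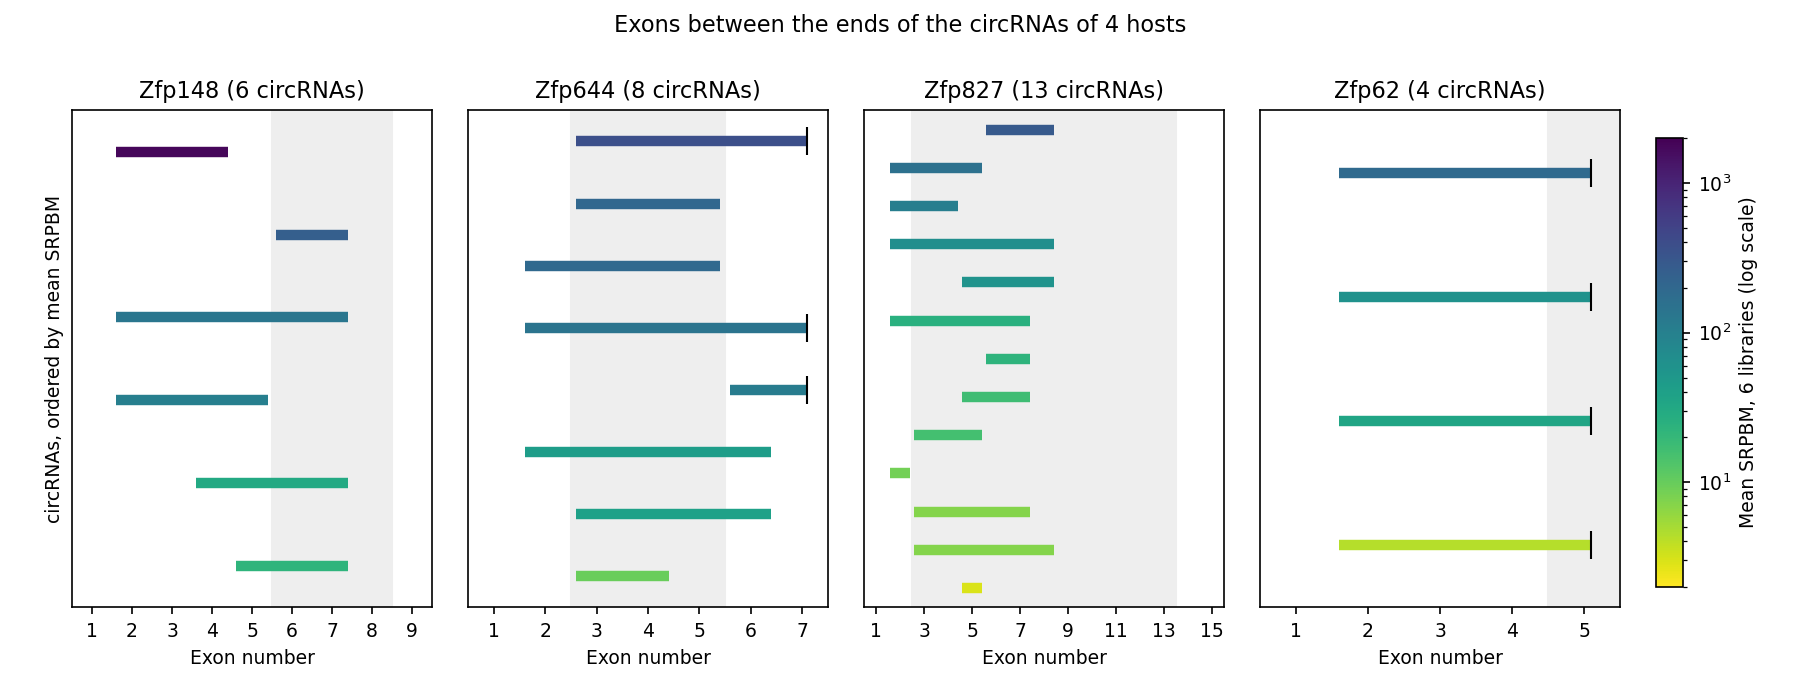
Exons between the ends of circRNAs of Zfp148, Zfp644, Zfp827 and Zfp62, each on 1 transcript with exons numbered along the horizontal axis (not to genomic scale) and circRNAs stacked by mean SRPBM, which the colour gives on a log scale. Grey marks the exons from the first to the last that encode fingers, and a black tick an end inside an exon. The leading circRNA of Zfp148 lies before its finger exons, and the 4 of Zfp62 end inside the finger exon. The map shows 6 of the 8 circRNAs of Zfp148, those with both ends on this transcript.

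Members differed from other circRNAs in where they sat on the host. Of the 186 members, 141 (75.8%, Wilson 95% interval 69.2 to 81.4%) began and ended at annotated exon edges of the host, against 91.2% (90.6 to 91.7%) of the others. In 44 members (23.7%) 1 end was on a boundary and the other was not, against 8.25% of the others. The circRNAs of a host share exons, so these intervals cover counting error only and no test was made.

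In 137 members both ends fell on exon boundaries of a single transcript and the exons between them could be listed. The median was 3 exons, against 4 in the others, yet they held more exonic sequence, with a median of 990 nt against 605 nt. Single-exon circRNAs made up 10.9% (6.75 to 17.3%) of the placed members and 3.84% of the placed others. The genomic span of all members ranged from 234 bases (Zfp827 mmu_circ_0010045) to 170517 bases (Zfp536 mmu_circ_0009207), with a median of 12093 bases against 14670 bases. At the median, members were thus shorter on the genome over all circRNAs, and longer in exon over the placed ones.

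Many circRNAs began at exon 2. Of the placed members, 42.3% (34.4 to 50.7%) started at exon 2, against 29.7% of the others, and the median intron upstream of the circRNA was 20249 bases against 10224.5 bases. The host's start codon lay inside 50 of them (36.5%, 28.9 to 44.8%), against 14.9% of the others. In 49 of these 50 the reading frame from the start codon ran across the junction, and in 5 of them it met no stop codon at all. The others were alike, with 1323 of 1337 frames across the junction and 145 without a stop codon. Examples are Zfp609 mmu_circ_0010631, with a frame of 250 codons, Zfp148 mmu_circ_0003257, with 144 codons, and Zbtb20 mmu_circ_0003327, with 76 codons. A reading frame is a property of the annotated sequence, and translation was not measured.

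Fingers were found by the pattern of 2 cysteines 2 to 4 residues apart, 12 residues, and 2 histidines 3 to 5 residues apart in the translated host. On 1 transcript per host, 65 of the 66 hosts had at least 1 finger, and Zfp451, the exception, encodes 9 on the transcript on which its circRNAs lie. The hosts had a median of 9 fingers and a maximum of 33 in Zfp462, and 338 of the 663 fingers (51.0%) were encoded in last exons. In 26 hosts every finger was in the last exon. Of 136 placed members on transcripts that encode fingers, 83 held at least 1 complete finger, 19 held every finger of the protein and 53 held none. Among the most abundant, the circRNAs of Zfp148 (exons 2 to 4), Zbtb20 and Zfp609 held none, that of Zfp532 held 3 of 10, and mmu_circ_0007681 of Zfp644 held all 7.

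**Figure D3:**
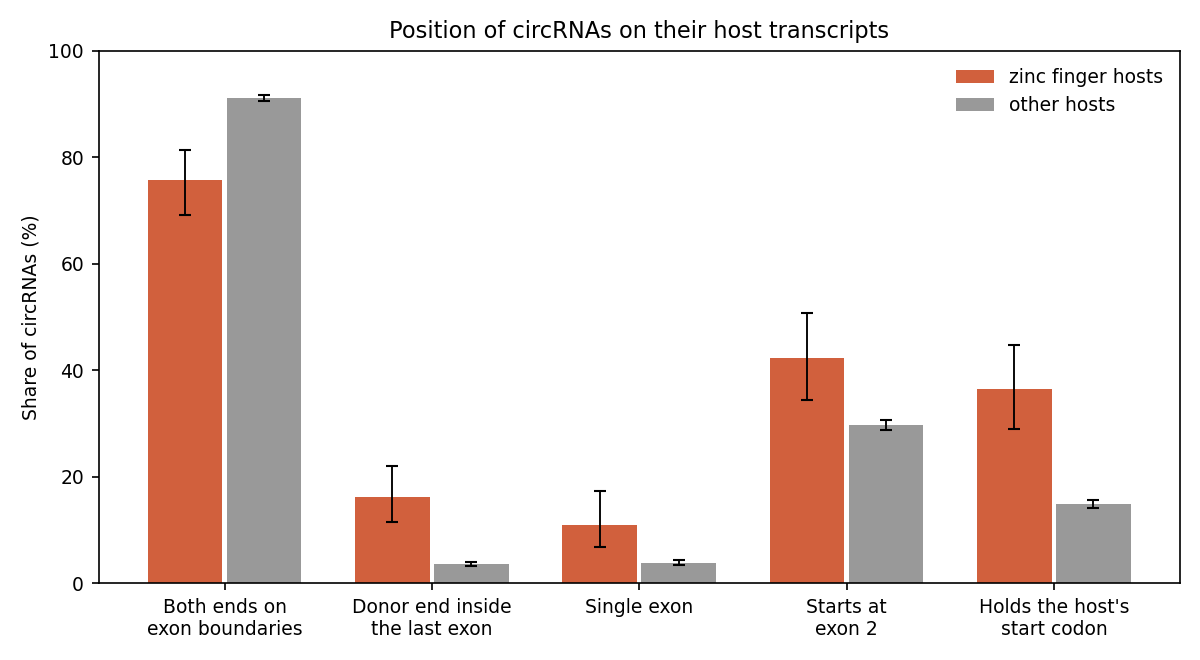
Share (%) of circRNAs with each positional feature among members and other single-host circRNAs, with Wilson 95% intervals as error bars. The first pair and second pair of bars are over all circRNAs (186 and 10087) and the other pairs over those placed on 1 transcript. Fewer members have both ends on exon boundaries (75.8% against 91.2%), and more end inside the last exon (16.1% against 3.55%).

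A closer view of the ends off exon boundaries was taken after the positions were seen. A last exon has no annotated donor site, yet 30 members (16.1%, 11.5 to 22.1%) from 20 hosts had the donor end inside the host's last exon, against 358 (3.55%, 3.21 to 3.93%) of the others. Of the 30, 18 ended in coding sequence, 11 in the 3′ UTR and 1 could not be assigned, 24 held at least 1 finger and 13 held every finger. They included the leading circRNAs of Zfp644 and Zfp62, and 8 of them were seen in all 6 libraries. Their mean SRPBM summed to 1308.

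In 11 of the 30, from 8 hosts, the end lay between fingers of the array or inside 1. The sequences around 10 of these ends are shown because the bases just after the end are alike. Each has the last 15 exonic bases inside the circRNA in lower case and the 15 bases after the end in capitals, from GENCODE M21 transcripts of mm10.
Zfp62 mmu_circ_0000799, chr11:49212695-49215945, plus strand: aaaggatccatacagGTGAGAAACCCTATG
Zfp62 mmu_circ_0000798, chr11:49212695-49215798, plus strand: agccctatgaatgtgGTGAGTGTGGAAAGG
Zfp62 mmu_circ_0000800, chr11:49212695-49217475, plus strand: agcagccctataattGTGAGTGTGGGAAAT
Zfp101 mmu_circ_0003633, chr17:33381199-33382586, minus strand: agaagccgtatacatGTAAGCATTGCACAA
Zfp101 mmu_circ_0003634, chr17:33381451-33382586, minus strand: agaagccttatccgtGTAAGTATTGTGGGA
Zfp955a mmu_circ_0003632, chr17:33242199-33244134, minus strand: aacggagtttcatatGTAAGTATTGTGGGA
Zfp871 mmu_circ_0003627, chr17:32774441-32777527, minus strand: atgagccttttaattGTAAGTACTGTGGGA
Zfp53 mmu_circ_0003548, chr17:21504981-21508904, plus strand: aatgcaaagaatgtgGTAAGTCCTTTCTTG
Zfp157 mmu_circ_0007865, chr5:138454980-138456916, plus strand: atagaatccatacagGTGAGAAGCCCTATG
Zfp418 mmu_circ_0009544, chr7:7181233-7182411, plus strand: aatgtagagaatgtgGTAAGTTCTTTAAAC
All 10 ends were followed by GTAAG or GTGAG, which with the end in Zfp438 not shown makes 10 of 11 (90.9%). Among all 30 member ends inside last exons, these 11 included, it was 21 (70.0%), so the likeness was not confined to the array. Among the ends of other circRNAs inside last exons it was 114 of 354 (32.2%). None of the ends of other circRNAs lay inside a finger array, so a likeness of the ends cannot be told apart from a likeness of the finger codons. The GT alone is no finding, since the authors' caller requires it. In the same 10 of 11, the end split a codon after its first base, a glycine codon GGT in 5 and a cysteine codon TGT in 5. Once GT is required, a split at this place allows only codons that end in GT. Among the 82 ends of other circRNAs in the coding part of last exons, 34 split a codon after its first base, a glycine codon in 23 and a cysteine codon in 6. All 11 array ends had 30-base flanks found in no transcript of another gene, while over all 168 junctions that could be built the donor flank matched another gene in 2 and the acceptor flank in 5. The whole junction of 1 member, Zfp64 mmu_circ_0005900, also occurred in an annotated linear transcript. Matches to other finger repeats of the same gene were not tested.

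These circRNAs ranged widely in level. Zfp62 mmu_circ_0000799, which ends after 6 of 25 fingers, had 179, 177 and 68.9 SRPBM in Control and 165, 193 and 337 SRPBM in TLE libraries. Zfp101 mmu_circ_0003633 had a mean of 97.9 SRPBM and Zfp955a mmu_circ_0003632 had 67.0 SRPBM, whereas those of Zfp157 and Zfp418 averaged 3.44 and 2.87 SRPBM. Members of the set were thus both well measured and near the limit of detection.

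TLE and Control were then compared to ask which circRNAs differed after Status Epilepticus, with limma on log2(SRPBM + 17.0914), where the added value is the smallest SRPBM of the table above 0. A call needed a difference of 1.5 or more on the log2 scale, up or down, and an unadjusted p under 0.05. No member passed. Of the 95 members above 0 in at least 3 libraries, 0 were called, where the share over all 4271 tested was 1.57% (1.26% higher and 0.304% lower in TLE). With p under 0.05 alone there were 2 of 95 (2.11%), where the share over all was 5.2%. The 2 were 1 higher and 1 lower (1.05% each), where the shares were 4.12% and 1.08%, and no circRNA of the table had an adjusted p under 0.05. The median log2 fold change was 0.32 over the members and 0.17 over all tested, and with every library brought to the same total it was 0.15 and 0.01. A filter on low values is easier to pass for circRNAs that are high in either group, so these medians describe the tested members and not all 186.

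Zfp148 mmu_circ_0003260, which spans exons 2 to 7 and shares the starting exon of the leading circRNA, had 170.9, 37.2 and 68.9 SRPBM in Control and 145, 193 and 190.4 SRPBM in TLE libraries. The Control 1 value lies inside the TLE range, so the groups overlap. Its log2 fold change was 1.002 (SE 0.42, limma adjusted p = 0.843, with an unadjusted p under 0.05). At the same total it was 0.81 and without Control 2 it was 0.59, and in both cases the unadjusted p was above 0.05. Zfp407 mmu_circ_0004293 had 34.2, 46.5 and 34.5 SRPBM in Control and 0, 0 and 17.3 SRPBM in TLE libraries, so every TLE library lay below every Control library. The log2 fold change was −1.35 (SE 0.62, limma adjusted p = 0.881, with an unadjusted p under 0.05), and with the libraries at the same total it was −1.503, past the threshold.

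**Figure D4:**
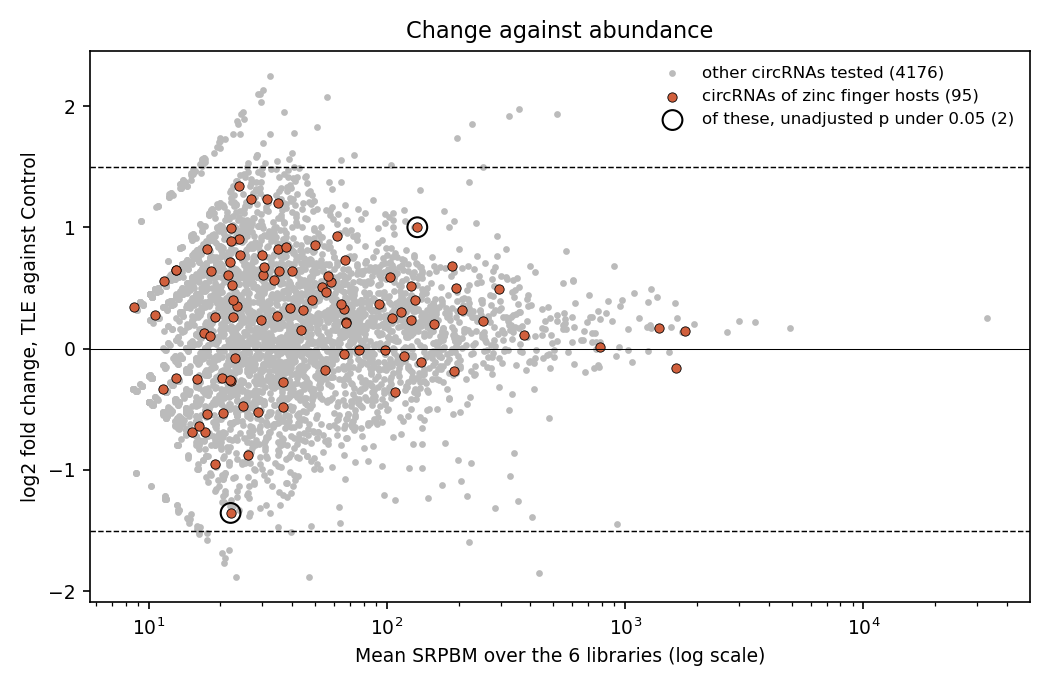
Log2 fold change of TLE against Control and mean SRPBM (log scale) for the 4271 circRNAs tested, with the 95 members in colour and the 2 with unadjusted p under 0.05 circled. Dashed lines mark changes of 1.5 up or down on that scale. All members lie between the dashed lines, and the members of highest abundance lie near 0.

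Few reads lay behind most of the highest and lowest differences. The 5 highest log2 fold changes were those of Zfp362 mmu_circ_0007182 (1.34, SE 0.64), Zfp148 mmu_circ_0003262 (1.24, SE 0.75), Zfp280c mmu_circ_0011069 (1.23, SE 0.66), Zfp62 mmu_circ_0000800 (1.20, SE 0.78) and Zfp148 mmu_circ_0003260. The 5 lowest were those of Zfp407, Zeb1 mmu_circ_0004124 (−0.95, SE 0.63), Zfp608 mmu_circ_0004117 (−0.88, SE 0.69), Zfp512 mmu_circ_0008080 and Zfp827 mmu_circ_0010046 (both −0.69). Zfp362 mmu_circ_0007182 had 0, 18.6 and 0 SRPBM in Control and 20.7, 35.1 and 69.2 SRPBM in TLE libraries, at most 8 reads in a library.

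The abundant members were measured well enough to give tighter limits. The log2 fold change was 0.15 (SE 0.21) for Zfp148 mmu_circ_0003257, −0.16 (SE 0.24) for Zbtb20 mmu_circ_0003327, 0.17 (SE 0.21) for Zfp609 mmu_circ_0010631 and 0.01 (SE 0.25) for Zfp532 mmu_circ_0004189. Zfp827 mmu_circ_0010049, where the groups did not overlap, had 0.49 (SE 0.26, limma adjusted p = 0.922). It was 1 of 5 members (5.26%) with every TLE library above every Control library, where the share over all tested was 8.94%. The others were from Zfp362, Zfp62 (mmu_circ_0000798), Zfp638 and Zfp423, and in these 4 the highest Control and the lowest TLE library held the same number of reads, so that they stand apart only in the scaling of the libraries. Only Zfp407 mmu_circ_0004293 (1.05%) had TLE below, where the share was 2.11%.

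Which members passed depended on single libraries, and the share over all tested moved as well. Without Control 1, 3 of the 95 members were called higher in TLE (Zfp280c mmu_circ_0011069, Zfp609 mmu_circ_0010629 and Zfp608 mmu_circ_0004112), where 2.51% of all tested were called, and without Control 2 there were 2 (Zfp362 mmu_circ_0007182 and Zeb1 mmu_circ_0004132), where the share was 2.39%. Without TLE 1 there were 3 (Zfp62 mmu_circ_0000800, Zfp141 mmu_circ_0009217 and Zfp362), where the share was 1.97%. Without TLE 2, 1 was called lower (Zfp608 mmu_circ_0004117), where the share was 2.6%, and without TLE 3, Zfp148 mmu_circ_0003262 was called higher and Zfp407 mmu_circ_0004293 lower, where the share was also 2.6%.

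Summed per host, none of the 46 hosts above 0 in at least 3 libraries passed, where the share over all 2157 hosts tested was 1.9% (1.53% higher and 0.371% lower in TLE). The median log2 fold change was 0.25 over these hosts and 0.20 over all, and 0.04 and 0.02 at the same total. With p under 0.05 alone there were 2 of 46 (4.35%), Zfp62 and Zfp362, both higher in TLE, where the share was 6.17% in all and 5.29% in this direction. At the same total, with 1 SRPBM added or with no filter, Zfp362 no longer had p under 0.05. Zfp62 had 205, 214 and 146 SRPBM in Control and 289, 316 and 554 SRPBM in TLE libraries. All its TLE values exceeded all its Control values. Its log2 fold change was 0.93 (SE 0.32, limma adjusted p = 0.728) and 0.72 at the same total. Its circRNA mmu_circ_0000798 had 25.6, 37.2 and 43.1 SRPBM in Control and 124, 43.8 and 95.2 SRPBM in TLE libraries, with 5 reads in both Control 3 and TLE 2, so the groups did not stand apart in reads.

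In 6 hosts (13%) TLE was above Control in every library, where the share over all hosts tested was 10.7%, and in 0 it was below, where the share was 1.95%. They were Zfp148, Zfp644, Zfp62, Zfp638, Zfp207 and Zfp362. These counts are of deposited values, and overlap at the same total was not counted. Zfp148 had 2077, 2073 and 2265 SRPBM in Control and 2293, 2446 and 2925 SRPBM in TLE libraries, but the log2 fold change of 0.25 (SE 0.19) was 0.02 at the same total. Zfp638, whose protein silences unintegrated retroviral DNA, had 153.8, 93.0 and 129 SRPBM in Control and 165, 228 and 208 SRPBM in TLE libraries. Its log2 fold change was 0.62 (SE 0.35), and 0.42 at the same total. For Zfp644 it was 0.25, and 0.03 at the same total. In Zfp207, Control 1 (51.3 SRPBM) and TLE 2 (52.6 SRPBM) lay less than 1 junction read apart. In Zfp362 the highest Control and the lowest TLE library held the same number of reads.

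**Figure D5:**
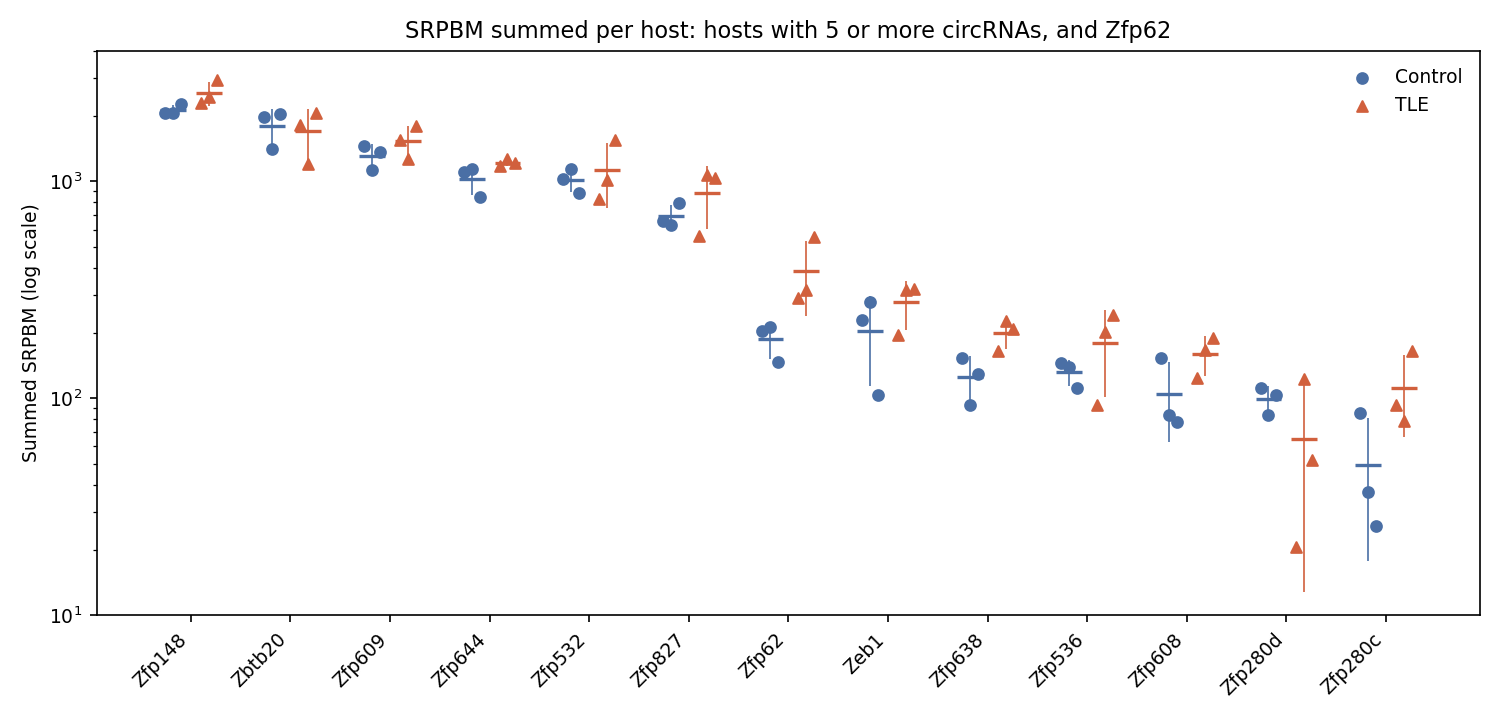
SRPBM summed per host (log scale) in each library for the 12 hosts with 5 or more circRNAs and for Zfp62. Circles are Control and triangles TLE libraries, horizontal lines the group means and vertical lines 1 SD (n = 3), cut at the lower edge of the axis. Zfp148, Zfp644, Zfp62 and Zfp638 have all TLE libraries above all Control libraries in these values, which were not rescaled for library totals.

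Further hosts are given for their known roles. Zfhx3, a homeodomain factor of circadian and neuronal gene control, had 0, 0 and 25.8 SRPBM in Control and 134, 78.9 and 0 SRPBM in TLE libraries over 4 circRNAs, and the groups overlapped. Its log2 fold change was 1.44 (SE 0.77, limma adjusted p = 0.834), and without TLE 3 it was 2.38 and past the threshold. Zfp423, which acts in cerebellar precursors, had 0, 18.6 and 43.1 SRPBM in Control and 62.0, 78.9 and 34.6 SRPBM in TLE libraries. Without Control 3, Zfhx3 and Zfp423 were both called higher, Zfp362 was called without Control 2, and Zfp362 and Zfp141 without TLE 1. The shares of all hosts called in these settings were 2.78%, 2.69% and 3.29%, and 2.64% without TLE 3.

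Zeb1 as a host had 230.7, 279 and 103 SRPBM in Control and 196, 316 and 320.2 SRPBM in TLE libraries, and the groups overlapped. Zfp536, a repressor of neuronal differentiation, was at 112 to 145 SRPBM in Control and 93.0 to 242 SRPBM in TLE libraries. Zbtb16, the factor PLZF, was at 74.4 to 129 and 31.0 to 112 SRPBM, and Zfhx4 at 27.9 to 86.1 and 69.2 to 72.3 SRPBM. Zkscan1 gave 17.1, 37.2 and 51.7 SRPBM in Control and 31.0, 35.1 and 0 SRPBM in TLE libraries. Zbtb18, a transcriptional repressor, and Zfp521 each gave 1 circRNA with a mean of 4.31 and 7.37 SRPBM and were not tested. Zeb2, Zbtb7a, Zbtb38, Zfhx2, Zkscan3 and Zfp804a are not analysed here.

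By family, the Zfp circRNAs had a summed mean of 8424 ± 157 SRPBM in Control and 10229 ± 2005 SRPBM in TLE libraries (SD, n = 3). The Zbtb circRNAs had 1958 ± 399.7 and 1827 ± 527 SRPBM. No family had a circRNA or host past the threshold, and the median log2 fold change of the tested circRNAs was 0.32 for the 77 of Zfp genes and −0.10 for the 8 of Zbtb genes, or 0.15 and −0.27 at the same total. Deposited totals of all circRNAs differed in the same libraries, at 351493, 330961 and 360024 SRPBM in Control and 335753, 409021 and 489032 SRPBM in TLE 1, 2 and 3.

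Other zinc finger genes named by a different prefix were counted beside the members. Of 43 such genes, 24 hosted 84 circRNAs. Of the 20 hosts and 38 circRNAs tested 0 were past the threshold, where the shares over all tested were 1.9% and 1.57%. Of the 38 circRNAs, 3 had an unadjusted p under 0.05 (limma), where the share over all was 5.2%. Their summed SRPBM was 2470 to 2845 in Control and 2525 to 3340.1 in TLE libraries. Klf12, a Krüppel-like repressor, came closest among these hosts, with 0, 18.6 and 17.2 SRPBM in Control and 51.6, 70.1 and 60.6 SRPBM in TLE libraries and a log2 fold change of 1.49 (SE 0.61, limma adjusted p = 0.766). It was chosen after its values were seen. Of 12 genes whose proteins work with KRAB and BTB repressors, 5 hosted 23 circRNAs and Trim28 hosted none of those analysed. Of the 3 hosts and 8 circRNAs tested 0 were past the threshold, where the shares over all were 1.9% and 1.57%. An unadjusted p under 0.05 (limma) was reached by 2 of these 8 circRNAs, where the share over all was 5.2%. No test was made on these counts.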

How the data were processed

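CircRNAs of 6 mouse cortex libraries were analysed from a table that the authors deposited 6 times in identical form and that was read once. Per the paper's methods, the authors aligned reads with BWA-MEM, called back-spliced junctions with CIRI, which needs GT-AG splice signals, and compared groups with DESeq2. The submitters' processing notes name mm10. The deposited values are a normalized signal, SRPBM, and the smallest corresponds to 2 reads. Hosts are given as Ensembl identifiers, of which 3466 of 3469 were named. Exons, coding sequence and printed bases came from GENCODE M21, with exons numbered on a transcript of the host that has both ends as exon boundaries, preferring coding, principal and long transcripts.

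Values were transformed as log2(SRPBM + 17.0914), and circRNAs or hosts above 0 in at least 3 of 6 libraries were fitted with limma 3.58.1 (lmFit and eBayes with trend, two-sided) in R 4.3.3, with Benjamini-Hochberg adjustment over all features tested. P-values measure the spread between 3 and 3 mice. Libraries of a group differed by more than sampling noise, so none was counted as a repeat. Depth was 32504 to 56516 junction reads, and intervals cover counting error only. Positional shares and sums over members received no test. Named were the 12 most abundant members, the 5 highest and 5 lowest log2 fold changes, those with p under 0.05, hosts with 5 or more circRNAs or the highest sums, the longest and shortest spans, and hosts with known roles. The members and lists were chosen with earlier results of these data known. The alternatives are given in the closing section.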

Additional observations from a re-analysis of the deposited data

How the results depend on the processing

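Of 596 log2 fold changes of 47 named circRNAs and hosts under the alternatives, 558 kept their direction and side of the threshold, 15 moved past it and 23 changed sign. The count of members past the threshold was 0. It became 2 when a difference of 1 on the log2 scale was enough, 1 with 8.55 SRPBM added in place of 17.1, 1 at the same total per library, and 0 to 3 when a library was left out. For hosts it was 0, and became 1, 1, 0 and 0 to 2 under the same settings. It stayed at 0 for both with 1 SRPBM added, with no filter and without the trend. Over all circRNAs, 3.93% were called with 8.55 SRPBM added and 1.45% at the same total. With a library left out it was 1.97% to 2.81%. For all hosts these shares were 3.57%, 1.53% and 2.36% to 3.29%. With 1 SRPBM added, no filter and no trend, 3.04%, 0.636% and 1.38% of all circRNAs were called. For all hosts it was 2.36%, 1.21% and 1.76%. The share for a difference of 1 was not counted.

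At the same total per library, the log2 fold change changed sign for Zfp148 mmu_circ_0003257 (−0.075), Zfp532 mmu_circ_0004189 (−0.21), Zfp644 mmu_circ_0007675 (−0.10), Zfp827 mmu_circ_0010039 (−0.003), Zfp609 mmu_circ_0010631 (−0.056) and the hosts Zfp609 (−0.0089) and Zfp532 (−0.12). With a library left out, values ran across 0 for Zfp148 mmu_circ_0003257 (−0.0071 to 0.23), Zbtb20 mmu_circ_0003327 (−0.32 to 0.11), Zfp532 mmu_circ_0004189 (−0.26 to 0.22), Zfp385b mmu_circ_0006407 (−0.63 to 0.39), Zfp644 mmu_circ_0007675 (−0.061 to 0.21), Zfp827 mmu_circ_0010039 (−0.062 to 0.49) and the hosts Zbtb20 (−0.28 to 0.12), Zfhx4 (−0.17 to 0.43), Zfp532 (−0.14 to 0.30) and Zfp462 (−0.38 to 0.91). The cause was not tested.

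The member share of SRPBM was 3.39% in Control and 3.36% in TLE without the most abundant circRNA of the table in the total, and 3.27% and 3.24% over circRNAs above 0 in at least 3 libraries. With at least 3 reads for detection, 74.7 and 85.0 members were detected.

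Same-numbered Control and TLE libraries correlated at 0.019, 0.014 and 0.010 in their deviations, the highest for each library but near 0, so they share only a number. With the replicate number as a block, 0 members and 0 member hosts were past the threshold, where the shares over all were 1.57% and 1.9%. Count models were not run, since the deposited values are a normalized signal and the read counts given here are only inferred from its steps. A value of 0 allows up to 25.6 to 31.0 SRPBM where no read was seen, and more where a read was present but not listed. Values of 2 reads were listed, so levels under this limit could be seen but were not reliably detected.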
